A study of Mus musculus with 16 samples.

Results

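The ribosome is built from ribosomal RNA and a fixed set of ribosomal proteins (RPs), and the mRNAs of these proteins were measured here in CD11b+ brain cells of malnourished mice. The cytosolic RP genes were chosen by name. A symbol matched when it was Rpl or Rps and a number, with at most a letter a, l, or x and further digits after it. Rplp0, Rplp1, Rplp2, and Rpsa matched as well. A matching row counted as a member when it had more than 10 counts in at least 4 of 16 libraries. Names that mark a pseudogene with -ps were left out. In all, 84 names of the 24421 rows in the table matched, and 81 passed the filter on low counts, so the family made up 81 of the 14565 genes tested. By name, 48 of the members belong to the large subunit and 33 to the small subunit.

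RNA-Seq was carried out on CD11b+ cells, with 1 library per mouse, in 3 groups named CON (n = 4), MAL (n = 5), and MAL-BG (n = 7). All mice were female C57BL/6J, were 3 weeks old when the diets began, and stayed on the diets for 1 month. CON mice ate a standard diet with 20% of calories from protein and 15% from fat. MAL mice ate an isocaloric malnourished diet with 7% protein and 5% fat, and CON and MAL mice were gavaged with the PBS vehicle. MAL-BG mice ate the malnourished diet and were also given 3 oral gavages over 5 days, starting 2 weeks into the diet, of a mixture of 7 commensal strains of Bacteroidales and *Escherichia coli*. Microglia and other myeloid cells carry CD11b on their surface, and magnetic beads against it were used to collect the cells once the tissue had been dissociated. The labels call the tissue cortical, and the methods name whole cerebra. Since MAL-BG mice differ from CON mice in both diet and gavage, the MAL-BG versus CON comparison cannot tell these apart. MAL-BG and MAL mice shared the diet and by design differed in the gavaged bacteria. The study fitted a batch term, but the batch of each library is not known here, so batch could not be separated from group.

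RP genes are expressed in every nucleated cell and are among the most abundant mRNAs of most tissues. Their products have to be made in matched amounts, and their mRNAs share a 5′ terminal oligopyrimidine (TOP) tract, a C at the first base followed by further pyrimidines, through which mTOR signaling sets how strongly they are translated. Because of this, RP synthesis is largely controlled at translation, and mRNA levels do not report it. Microglia, the resident macrophages of the brain, are known for raising biosynthesis and growth when they are activated.

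The TOP tract is shown at the annotated start of 6 members that are described below, as the feature that ties the family to mTOR. Each line gives the 14 bases before the start and 15 from the start on, 5′ to 3′, with the run of pyrimidines that begins at the start in capitals.
Rps6: agcggaagtcgggcCTCTTTTTCgtgacg
Rpl15: tgggagaaagccttCTTCCTTTCCTCTgg
Rpl35: ggccccgccctttcCTCTTTCTCTCgaac
Rplp2: gcgtcagcgtcttcCTTTCgccgccggac
Rps21: accgaggacccgccCTCCTgcccaatagt
Rps27: tttccgctttcgctCCTTTCCggcggtga
In the RefSeq annotation of GRCm38.p6, from which the sequences were read, these windows lie at chr4:86857353-86857381 (minus strand) for Rps6, chr14:18270972-18271000 (minus strand) for Rpl15, and chr2:39005117-39005145 (minus strand) for Rpl35. The others lie at chr7:141447637-141447665 (plus strand) for Rplp2, chr2:180257365-180257393 (plus strand) for Rps21, and chr3:90213634-90213662 (minus strand) for Rps27. A start was found for 60 of the 81 members, and 13 of them (21.7%) had a C followed by at least 4 pyrimidines exactly at a start, on the strand of the gene, against 3.04% of the 11034 tested genes with a start. Allowing the run to begin within 5 bases of the start gave 29 members (48.3%) against 23.8% of the tested genes. Annotated starts can lie several bases from the base that the cell uses most, so a member without the run in this window may still carry one.

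Total counts per library were 10312703–13461574 for CON, 10864121–12819982 for MAL, and 14191791–18705202 for MAL-BG, so the MAL-BG libraries were the deepest. Marker genes of several cell types moved with the groups. All 12 choroid plexus markers were called lower in MAL-BG than in CON. Their summed levels, in counts scaled to a library of fixed size (CPM), were 10876–41891 in CON, 5069.6–32988 in MAL mice, and 1488–13316 in MAL-BG. All 10 neutrophil markers tested were called higher (56.6–207 CPM for CON, 46.2–346 for MAL, and 206–13674 for MAL-BG), as were 7 of 12 microglial markers (17943–28944, 18565–31457, and 38361–51973 CPM). Called lower in MAL-BG than in CON were also 11 of 12 neuron, 9 of 10 ependyma, and 6 of 9 astrocyte markers, with 0 called higher in each list. Microglial markers were present in every library. The part of these shifts in the RP values was not tested, and in bulk RNA fewer cells of a type and less RNA per cell cannot be told apart.

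The share of the library that the RP mRNAs took overlapped between all 3 groups. Members held 2.07% ± 0.176 of counts in CON (SD, n = 4), 1.90% ± 0.227 in MAL (n = 5), and 1.85% ± 0.124 (n = 7) in MAL-BG. By library, the share was 1.85%, 2.02%, 2.23%, and 2.20% in CON and 1.77%, 1.89%, 1.62%, 2.21%, and 2.01% in MAL. MAL-BG libraries ran from 1.69% to 2.04% with a median of 1.90%. The lowest share of all 16 libraries came from a MAL mouse, and another MAL mouse lay within the 3 highest.

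Levels of single members differed widely. Counted per kilobase of coding sequence, the median member in CON stood at 425 CPM per kilobase, with lower and upper quartiles of 274 and 645. At the top were Rplp1, an acidic protein of the stalk that recruits elongation factors, with 2640 CPM per kilobase in CON, Rpl41, the shortest RP, with 2484, and Rps21, a protein of the small-subunit platform, with 1503. These 3 members held the same order at the top in both other groups. Counts were divided by coding length only, although the counts of a gene can include its untranslated parts, so this order depends on that length. Rpl41, with 78 coding bases, had a mean of 194 CPM in CON. Rps15 had 467 CPM there but only 1066 per kilobase. At the bottom were Rpl30 (13.8 CPM per kilobase), Rpl34 (13.1), and Rpl39l (7.46). Ranks across the 81 members were almost the same in CON and MAL (Spearman's rho = 0.997) and in CON and MAL-BG (rho = 0.965), a description over genes of the same annotation, not over replicates.

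How far such levels depend on what short reads can be assigned to was not tested. RP genes have many processed pseudogenes, and 30 of the 81 members have no 42-base stretch of coding sequence, the length of the reads, that occurs in no other annotated gene. For Rps6, Rpl10, Rpl15, Rpl41, Rps27, and Rps29 the share of such unique stretches was 0.0%, for Rpl30 13.7%, for Rpl34 23.0%, and for Rpl39l 94.8%. Rpl34, Rpl30, and Rps27 had only 793, 891, and 913 counts over all 16 libraries, although their proteins are obligatory parts of the ribosome. Rpl26, an equally obligatory protein at the tunnel exit, had 2 counts in all and was not tested. The other 2 names left out were Rpl3l, with 78 counts and 1 library above 10, and Rpl10l, listed at 0. Values of members with few unique stretches are therefore uncertain, and a difference between members in level is less secure than a difference of 1 member between groups. Just inside the filter lay Rpl39l, with 263 counts in all and 11 libraries above 10.

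Malnutrition alone was not associated with a called change in any RP mRNA. In MAL versus CON, 0 of 81 members passed an adjusted p of 0.05 in edgeR's quasi-likelihood test, as did 0.00% of all genes, and DESeq2 gave 0 members as well. An unadjusted p under 0.05 was reached by 1 member (1.23%) and by 1.46% of all genes. The median log2 fold change was -0.13 over the members and -0.02 over all genes, and 78 of 81 members lay below 0, as did 7923 of the 14565 genes tested. This common offset of the members was of the size of the spread between mice, since their median deviation varied between libraries of a group with a pooled SD of 0.149 on the log2 scale. For 74 members (91.4%) the 95% interval lay wholly within 0.58 of 0, against 48.8% of all genes.

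The 1 member with an unadjusted p under 0.05 was Rpl30, a large-subunit protein at the subunit interface. It stood at 4.91, 3.90, 5.83, and 4.62 CPM in CON and at 3.66, 3.66, 3.01, 2.50, and 4.14 in MAL. These ranges overlap in 1 MAL library, and the log2 fold change was -0.50 ± 0.22 (SE; edgeR, adjusted p = 0.999).

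Many genes changed in the MAL-BG mice, and few RP mRNAs did past the fold limit. In MAL-BG versus CON, 33.1% of all genes were called, which required an adjusted p under 0.05 and a log2 fold change past 0.58 in either direction. Among the 81 members, 0 were called higher and 1 was called lower (1.23%), which was Rpl34, where 11.4% and 21.7% of all genes were. This count was 0 when CON replicate 2 or 3 or MAL-BG replicate 2, 3, 4, or 7 was left out. In MAL-BG versus MAL, 30.4% of all genes were called, and among the members 1 was called higher, Rps4l, and 0 lower, where 10.2% and 20.2% of all genes were. The higher count was 0 without MAL replicate 1, 2, or 3, 2 without MAL-BG replicate 6, and 3 without MAL replicate 4 or MAL-BG replicate 1, and 1 member was called lower without CON replicate 1 or MAL replicate 2. DESeq2 called 1 member lower against CON, and 1 higher and 1 lower against MAL. An unadjusted p under 0.05 was reached by 21 members (25.9%) against CON, beside 52.7% of all genes, and by 17 (21.0%) against MAL, beside 52.2%. Both comparisons use the same 7 MAL-BG libraries. The 95% interval lay wholly within 0.58 of 0 for 53 members (65.4%) in MAL-BG versus CON, against 24.9% of all genes, and for 59 members (72.8%) in MAL-BG versus MAL, against 27.8%. Member log2 fold changes ran from -0.71 to 0.44 against CON (SD 0.252), while those of all genes had an SD of 1.03.

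How the libraries are scaled sets where the family as a whole stands. With TMM scaling the members had a median of -0.10 against CON and 0.03 against MAL on the log2 scale, beside -0.04 and -0.03 over all genes. Short genes were higher than long genes in the MAL-BG libraries: the mean deviation of the shortest 20% of genes minus that of the longest 20% was -0.35 to -0.16 for CON, -0.43 to -0.03 for MAL, and -0.06 to 0.51 for MAL-BG on the log2 scale, with members left out of both. RP mRNAs are short. With offsets per library for gene length and GC content and TMM kept, called the offset fit from here on, the median of the members was -0.37 against CON and -0.26 against MAL. In it, 20 members were called lower against CON and 5 against MAL, and 0 were called higher. Of all 14565 genes, 3079 were called lower against CON and 2859 against MAL in that fit, with 1515 and 1359 called higher. By the adjusted p alone, 49 members were lower and 1 higher against CON in the offset fit, beside 25.5% and 19.5% of all genes, and 40 were lower and 2 higher against MAL, beside 23.8% and 19.5%. With library totals only, 30 members were lower and 1 higher against CON (29.7% and 14.5% of all genes), and 13 were lower and 3 higher against MAL (29.8% and 13.9%). When the same offsets went with factors that set the mean log2 CPM equal between libraries, the medians were -0.11 and -0.04 while those of all genes moved to 0.20 and 0.18. In both fits with offsets the median of the members lay below that of all genes. The part of the length trend in the RP values was not tested beyond these fits.

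**Figure D1:**
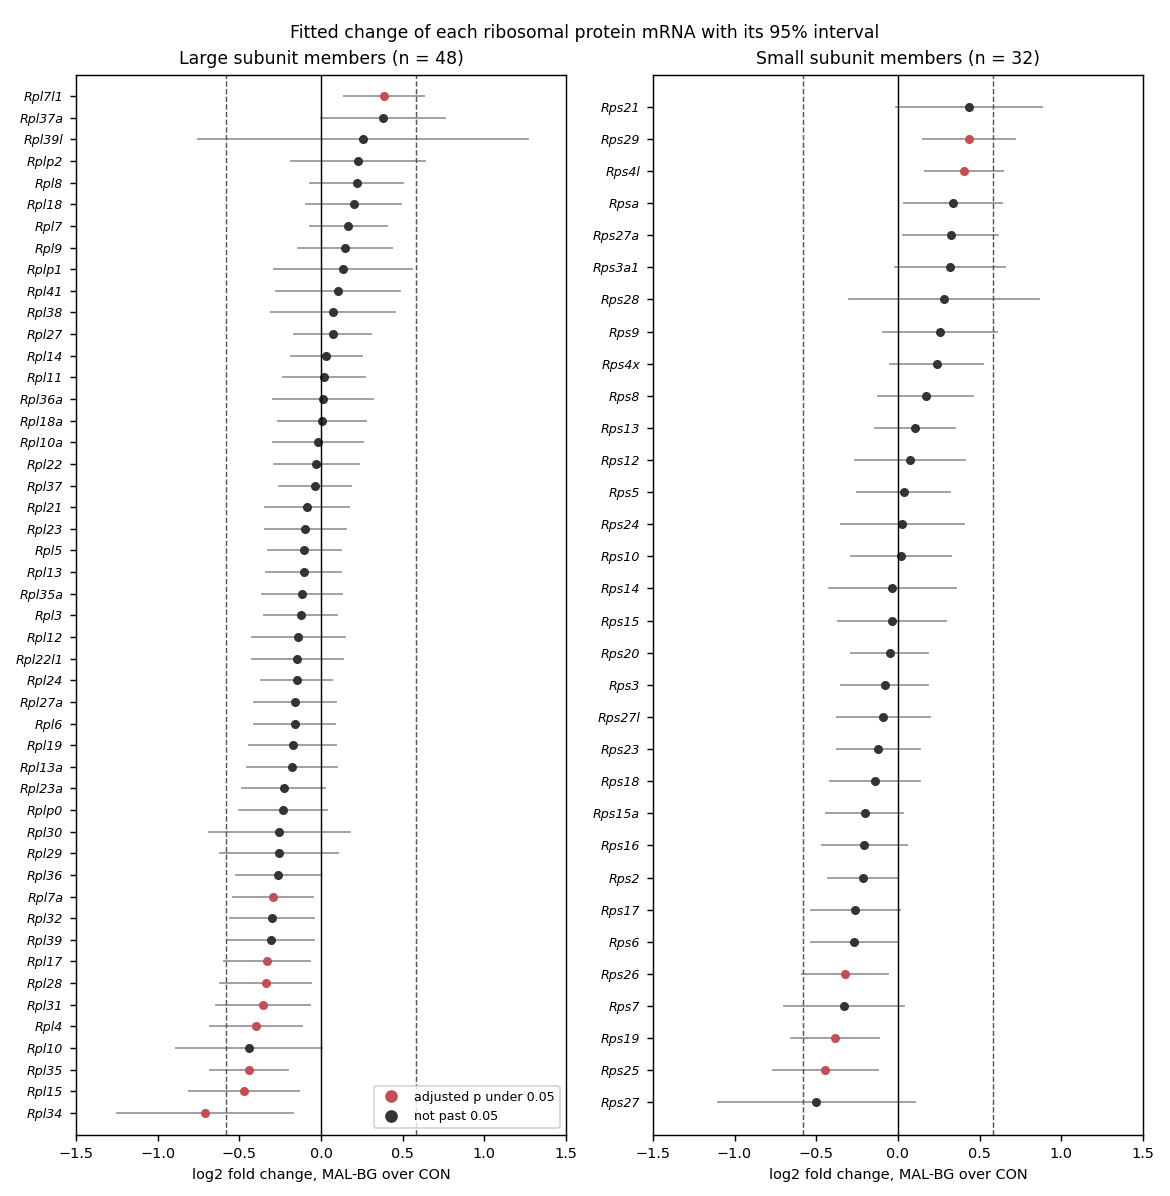
Fitted log2 fold change of 80 members in MAL-BG over CON (horizontal axis) with its 95% interval (grey bars), for the large subunit on the left and the small subunit on the right. Red points passed an adjusted p of 0.05, dashed lines mark 0.58 either side of 0, and Rpl34, at -0.71, is the only point beyond them.

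With the adjusted p alone and no limit on the fold, 15 members changed in MAL-BG versus CON (18.5%), beside 45.1% of all genes. Of these, 3 were higher and 12 lower (3.70% and 14.8%), where 19.8% and 25.2% of all genes were. Against MAL, where 44.3% of all genes passed, 9 members were higher and 0 lower (11.1% and 0.00%), beside 20.2% and 24.1% of all genes. Lower members outnumbered higher ones against MAL in the offset fit and with library totals only, as given above. The number of members lower than in CON depended on single libraries. Leaving out CON replicate 3, MAL-BG replicate 4, or MAL-BG replicate 7 left 1 member lower, MAL-BG replicate 2 left 2, CON replicate 2 or MAL-BG replicate 1 left 3, CON replicate 4 left 4, and MAL-BG replicate 3 left 6. The number rose to 13 without CON replicate 1 and to 14 without MAL-BG replicate 5 or MAL-BG replicate 6. The 3 higher members numbered 2 to 7 in these fits, with 7 without MAL-BG replicate 6 and 5 without MAL-BG replicate 1 or MAL replicate 4, and 2 without CON replicate 1 or CON replicate 2. Against MAL, the 9 higher members became 3 without MAL replicate 1 or MAL replicate 3, 5 without MAL replicate 2 or MAL replicate 5, 15 without MAL-BG replicate 6, and 22 without MAL replicate 4. The 0 lower members became 3 without MAL replicate 3, 2 without MAL-BG replicate 6, and 1 without CON replicate 1, MAL replicate 2, or MAL-BG replicate 5. For fits with a library left out, shares over all genes were not counted, so these numbers of members stand without that background.

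The members that were higher in MAL-BG differ in role. Rps29, a zinc-binding protein of the small-subunit head, stood at 117, 103, 106, and 116 CPM in CON and at 96.9, 86.0, 89.6, 133, and 107 in MAL. In MAL-BG its lowest, median, and highest values were 119.6, 143, and 182 CPM. All 7 MAL-BG libraries thus lay above the 4 CON libraries, and 1 MAL library reached into their range. Rps29 rose by 0.44 ± 0.13 on the log2 scale over CON (SE; edgeR, adjusted p = 0.0141) and by 0.54 ± 0.12 over MAL (adjusted p = 0.00246). In the offset fit, Rps29 passed in neither comparison, with 0.06 over CON (edgeR, adjusted p = 0.652) and 0.19 over MAL (adjusted p = 0.111). Against CON it also missed the threshold without CON replicate 2 (adjusted p = 0.0522) and with offsets and mean log2 scaling (adjusted p = 0.0519).

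Rps4l is a copy of Rps4x that lies on chromosome 6 at 148354656–148355596 (plus strand). The annotation used gave it no coding sequence, so the 943 bases of its whole transcript were taken instead. It is a member by its name, and whether it makes a protein was not tested. Of its 42-base stretches, 81.6% occur in no other annotated gene. It stood at 27.9, 24.0, 27.5, and 30.4 CPM in CON, at 21.6, 21.3, 22.1, 29.3, and 24.8 in MAL mice, and at 32.8, 36.2, and 41.0 (lowest, median, highest) in MAL-BG. Rps4l was the 1 member (1.23%) whose 7 MAL-BG libraries all lay above the other 9, as 6.17% of all genes did, and for 0 members did all lie below, as for 6.36% of genes. Rps4l rose by 0.40 ± 0.11 on the log2 scale over CON (SE; edgeR, adjusted p = 0.00870) and by 0.61 ± 0.11 over MAL (adjusted p = 3.57e-04). The second lay under the fold limit with library totals only (0.48), with over 10 counts asked of all 16 libraries (0.56), in thinned libraries (0.57), with offsets and mean log2 scaling (0.55), when scaled by the members (0.57), and without MAL replicate 1, 2, or 3 or MAL-BG replicate 3 (0.56 to 0.57). In the offset fit, the value of Rps4l against CON was 0.22 and did not pass (edgeR, adjusted p = 0.153), and that against MAL was 0.33 (adjusted p = 0.0264). Its parent Rps4x, an X-linked small-subunit protein, had means of 403 ± 55.9 CPM (SD) in the 4 CON mice, 365 ± 56.4 in MAL (n = 5), and 475 ± 58.5 in MAL-BG (n = 7), and it rose by 0.38 on the log2 scale against MAL (edgeR, adjusted p = 0.0209) but not past the test against CON (0.24, adjusted p = 0.162). The rise of Rps4x against MAL was 0.07 in the offset fit (adjusted p = 0.694), 0.25 with library totals only (0.0969), and 0.29 with offsets and mean log2 scaling (0.115), and it missed the threshold without MAL replicate 1, 2, or 3.

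Rpl7l1, a relative of Rpl7 that takes part in making the large subunit, stood at 62.7, 78.2, 76.3, and 76.2 CPM in CON and at 74.0, 81.7, 72.4, 77.6, and 72.1 in MAL. MAL-BG libraries ran from 71.4 to 118 CPM with a median of 96.7, and all but MAL-BG replicate 3 lay above every CON and MAL library. It rose by 0.38 ± 0.12 on the log2 scale over CON (SE; edgeR, adjusted p = 0.0133) and by 0.34 ± 0.11 over MAL (adjusted p = 0.0174). Without CON replicate 1, which had the lowest value of all libraries, the first was 0.30 (edgeR, adjusted p = 0.0653), and with only both groups in the fit it was 0.37 (adjusted p = 0.0511). With library totals only, Rpl7l1 passed in neither comparison (0.25, adjusted p = 0.106, and 0.20, adjusted p = 0.154). Against MAL it also missed the threshold when scaled by the members or without MAL replicate 1, 3, or 5.

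Copies of RP genes were read against their parents per coding base. Rpl7l1 reached 20.7% ± 1.19 (SD) of Rpl7 in CON (n = 4), 23.7% ± 2.09 in MAL (n = 5), and 24.0% ± 3.71 in MAL-BG (n = 7). Rpl22l1, a copy of Rpl22 that can stand in for it, reached 17.3% to 21.9% of its parent in CON, 17.6% to 23.1% in MAL mice, and 14.9% to 20.3% in MAL-BG mice. Rpl39l, known from the germ line, reached 1.59% ± 0.486, 1.49% ± 0.932, and 2.33% ± 0.993 of Rpl39. None of these 3 ratios was tested, and their ranges overlapped between groups. Rps27l stood at 43.6 ± 8.65, 43.0 ± 6.35, and 41.0 ± 4.20 CPM and did not pass the test in any comparison, but fell by 0.49 against CON and by 0.45 against MAL in the offset fit (edgeR, adjusted p = 0.0205 and 0.0239). Its ratio to Rps27 is not interpretable because Rps27 shares all its stretches with other genes.

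Against MAL, the ubiquitin fusion Rps27a, which is cut into ubiquitin and a small-subunit protein, rose as well. It stood at 203, 219.8, 217, and 209.6 CPM in CON, at 173, 182, 159.5, 244, and 191 in MAL mice, and at 216, 248, and 339 (lowest, median, highest) in MAL-BG. It rose by 0.48 ± 0.13 on the log2 scale over MAL (SE; edgeR, adjusted p = 0.00623), while the value over CON was 0.32 ± 0.14 (adjusted p = 0.0646). In the offset fit Rps27a stood at 0.13 over MAL and did not pass (adjusted p = 0.256). Rps21 and Rpsa, which lie together on the small-subunit platform, rose against MAL by 0.52 and 0.37 on the log2 scale (edgeR, adjusted p = 0.0415 and 0.0304) and missed the threshold against CON (0.44 and 0.34, adjusted p = 0.106 and 0.0618). Against MAL neither passed in the offset fit (0.17 and 0.20, adjusted p = 0.325 and 0.188) or with library totals only (0.39 and 0.24, adjusted p = 0.0814 and 0.0968). Both also missed the threshold with over 10 counts asked of all 16 libraries and without MAL replicate 1, 2, 3, or 5, and Rps21 with only both groups in the fit and without CON replicate 3 or MAL-BG replicate 2, 4, or 7. The remaining members higher against MAL were Rpl7 (0.32, adjusted p = 0.0207) and Rpl37a (0.43, adjusted p = 0.0470), and in neither fit with offsets did they pass. Rpl7 also missed the threshold with library totals only (0.18, adjusted p = 0.156) and without MAL replicate 1 or 3. Rps21 shows how uneven the groups were, with 426, 360.0, 383, and 346 CPM in CON, 292, 333, 282, 528, and 348 in MAL, and 327, 512, and 685 (lowest, median, highest) in MAL-BG.

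Of the members that were lower than in CON, Rpl35 had the smallest adjusted p. Rpl35 sits beside the exit of the peptide tunnel and stood at 94.8, 99.7, 103, and 99.4 CPM in CON and at 83.0, 86.8, 72.4, 97.7, and 96.9 in MAL. In MAL-BG it ran from 55.1 to 86.1 CPM with a median of 74.6, below every CON library. Rpl35 fell by 0.44 on the log2 scale from CON (SE 0.11; edgeR, adjusted p = 0.00503), while the value over MAL was -0.26 ± 0.11 (adjusted p = 0.0599). In the offset fit Rpl35 stood at -0.68 over CON (adjusted p = 7.60e-04) and -0.57 over MAL (adjusted p = 0.00201).

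Rpl15, a large-subunit protein with no unique stretch, stood at 78.3, 121, 117, and 103 CPM in CON, and MAL-BG libraries ran from 54.6 to 98.7 with a median of 67.9. It fell by 0.47 on the log2 scale (SE 0.16; edgeR, adjusted p = 0.0238). The value was -0.72 in the offset fit, and the call was lost with only both groups in the fit, when scaled by the members, and without CON replicate 2, 3, or 4 or MAL-BG replicate 2, 4, or 7 (adjusted p from 0.0524 to 0.0995).

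Rps25, a small-subunit protein that some viral and cellular internal ribosome entry sites need, stood at 183, 194, 229, and 192 CPM in CON and at 103, 150.3, and 193 (lowest, median, highest) in MAL-BG. It fell by 0.45 on the log2 scale (SE 0.15; edgeR, adjusted p = 0.0251). Rps25 stood at -0.71 in the offset fit and lost its call with offsets and mean log2 scaling and without CON replicate 2 or 3 or MAL-BG replicate 1, 2, 4, or 7 (adjusted p from 0.0511 to 0.105). Rps19, the gene most often mutated in Diamond-Blackfan anaemia, stood at 182, 186, 198, and 182 CPM in CON and at 119.8, 143, and 173 in MAL-BG, with no overlap. Its value of -0.38 ± 0.13 on the log2 scale (SE; edgeR) passed the test against CON (adjusted p = 0.0226), while MAL libraries at 158, 175, 135, 228, and 159 CPM lay on both sides of the CON values. Rps19 stood at -0.59 in the offset fit and lost its call with offsets and mean log2 scaling and without CON replicate 3 or MAL-BG replicate 1, 4, or 7 (adjusted p from 0.0559 to 0.0726).

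Rpl34, a large-subunit protein, was the only member called lower and is among the 4 least abundant. It stood at 5.68, 4.45, 4.73, and 3.71 CPM in CON, at 4.17, 3.95, 3.44, 3.46, and 4.54 in MAL mice, and at 1.53, 2.62, and 4.12 (lowest, median, highest) in MAL-BG. The groups overlapped. The log2 fold change of -0.71 ± 0.26 against CON (SE; edgeR, adjusted p = 0.0327) lost its call under 4 other settings. It was -0.69 without a filter on low counts (adjusted p = 0.0540), -0.72 with only both groups in the fit (0.0733), -0.64 in libraries thinned to the smallest total (0.0699), and -0.62 when scaled by the members (0.0828). It was also lost when any of CON replicates 1, 2, and 3 or MAL-BG replicates 2, 3, 4, and 7 was left out (-0.74 to -0.54, adjusted p from 0.0535 to 0.101).

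**Figure D2:**
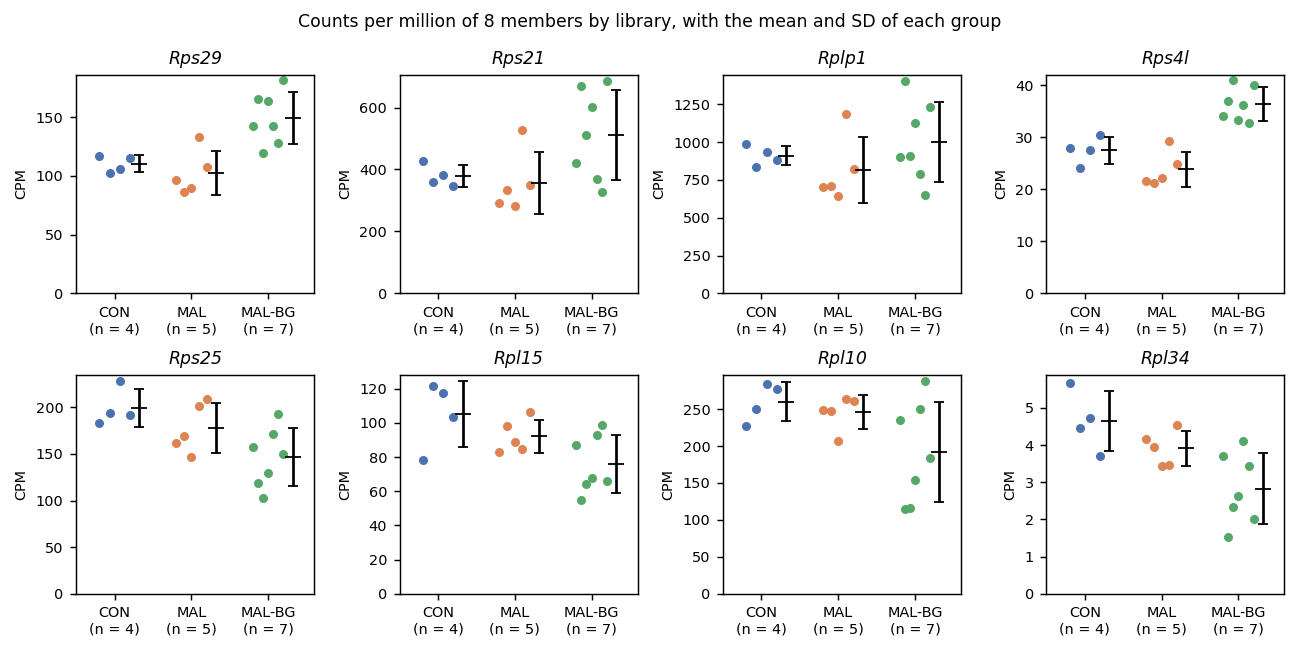
CPM (vertical axes, starting at 0) of 8 members in each library of CON, MAL, and MAL-BG, with the mean and SD of the group in black. In Rps4l all 7 MAL-BG libraries lie above the other 9, while in Rps21, Rplp1, and Rpl10 the MAL-BG libraries spread over and beyond the range of the CON libraries.

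Members were also grouped by their place in the ribosome, and the counts below stand beside 19.8% of all genes higher and 25.2% lower against CON by the adjusted p alone. Along the wall and rim of the peptide exit tunnel, 4 of the 10 members tested were lower against CON (Rpl4, Rpl17, Rpl31, and Rpl35), 0 were higher, and the median log2 fold change was -0.27. Only 1 member of the whole family stayed lower without CON replicate 3, MAL-BG replicate 4, or MAL-BG replicate 7, so these counts rest on single libraries. Of 12 members at the head and beak of the small subunit, Rps29 was higher and Rps19 and Rps25 were lower (median -0.07). Of 6 members on the platform, Rps26 was lower against CON, and Rpsa and Rps21 were higher against MAL (median 0.14 against CON). At the P stalk, through which elongation factors are engaged, none of Rplp0, Rplp1, Rplp2, and Rpl12 passed the test in either MAL-BG comparison by edgeR, with values of -0.23 to 0.23 against CON on the log2 scale. Under other settings Rplp0 passed, with -0.37 against CON with library totals only (adjusted p = 0.0236), and -0.50 against CON and -0.38 against MAL in the offset fit (0.00414 and 0.0157). Without MAL replicate 4, Rplp1 and Rplp2 rose against MAL by 0.46 and 0.49 (0.0379 and 0.0170). Rpl5 and Rpl11, which with 5S rRNA form the particle that binds Mdm2 under ribosomal stress, passed in neither MAL-BG comparison. Rpl5 had means of 126 ± 13.5 CPM (SD) in CON (n = 4), 117 ± 11.6 in MAL (n = 5), and 117 ± 12.5 in MAL-BG (n = 7), and its 95% interval against CON was -0.32 to 0.12 on the log2 scale. For Rpl11 the interval was -0.23 to 0.27. In the offset fit both fell against CON, Rpl5 by 0.34 (edgeR, adjusted p = 0.00683) and Rpl11 by 0.33 (adjusted p = 0.0162).

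Rps6, the substrate of S6 kinase downstream of mTOR, stood at 92.8, 122, 134, and 128 CPM in CON, at 113, 112, 99.9, 123, and 117 in MAL mice, and at 75.9, 103, and 116 (lowest, median, highest) in MAL-BG. Its log2 fold change of -0.27 ± 0.12 against CON (SE) did not pass the test (edgeR, adjusted p = 0.0873). It did in the offset fit (-0.59, adjusted p = 0.00393), with library totals only (-0.41, 0.0197), with over 10 counts asked of all 16 libraries (-0.33, 0.0345), and without CON replicate 1 (-0.39, 0.0205). Against MAL, Rps6 passed in the offset fit (-0.53, 0.00544) and with library totals only (-0.33, 0.0411). Rpl13a, which myeloid cells use outside the ribosome to silence inflammatory transcripts after interferon-γ, stood at -0.18 against CON on the log2 scale with a 95% interval of -0.45 to 0.10 (edgeR, adjusted p = 0.275), but fell by 0.49 in the offset fit (adjusted p = 0.00124) and by 0.31 with library totals only (adjusted p = 0.0243). Of 9 Diamond-Blackfan anaemia genes, 2 were lower against CON (Rps19 and Rps26) and 0 higher, with a median of -0.12.

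Members varied together between mice, within groups as well. Over the 77 members above 10 CPM, the median Pearson r of 2926 pairs was 0.51 over 16 libraries and 0.60 once group means were removed, and 87.9% of pairs had an r above 0 after that. These values describe mRNAs of the same libraries, with their depth and base composition in common. A first axis held 46.4% of the variance among the 77 members and a second 34.1%. At the high end of the first axis stood Rps21, Rps28, Rpl37a, Rplp2, Rplp1, and Rps9, and toward the low end Rpl10, Rpl15, Rps7, Rpl29, and Rps25, with both subunits at either end.

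**Figure D3:**
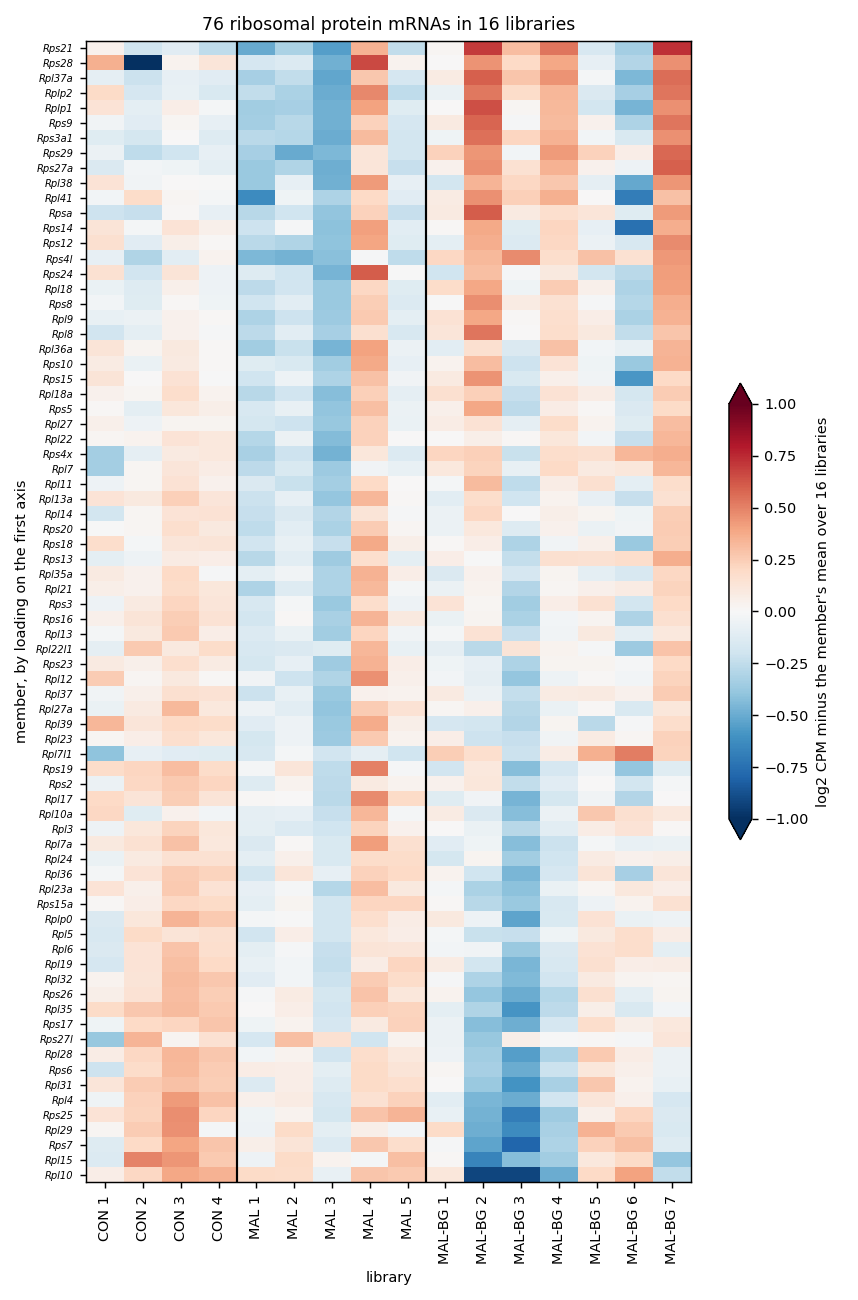
Deviation of the log2 CPM of 76 members from their own means over 16 libraries (colour), with libraries in columns by group and members in rows by loading on the first axis. MAL replicate 4 and MAL-BG replicates 2, 4, and 7 are high for the upper rows, MAL replicate 3 is low for most, and MAL-BG replicates 2 and 3 are low for the bottom rows.

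The first axis divided libraries of the same group. Scores were -1.09 to 0.11 for CON, -2.23 to 1.47 for MAL, and -1.56 to 2.76 for MAL-BG, in log2 units along the axis. The group means were -0.39 ± 0.51 (SD), -0.90 ± 1.41, and 0.86 ± 1.54 in the same order. In MAL, replicate 4 had 1.47 and the other 4 libraries lay between -2.23 and -0.86. This library also had the lowest summed choroid plexus markers of its group (5069.6 CPM, against 9767 to 32988 in the others) and the highest summed microglial markers (31457 CPM, against 18565 to 25550). MAL replicate 1, which came next in both sums (9767 and 25550 CPM), had a score of -1.59. In MAL-BG, replicate 2 had 2.76, replicate 7 had 2.42, and replicate 6 had -1.56. The short-minus-long difference was 0.42, 0.51, and -0.06 in these 3 libraries. In MAL-BG replicates 1, 3, 4, and 5 the scores were 0.15, 0.81, 1.68, and -0.20. Their short-minus-long differences were 0.43, 0.26, 0.41, and 0.39. On the second axis, scores were 0.23 to 1.85 for CON, -1.77 to 1.85 for MAL, and -2.93 to 0.53 for MAL-BG. The part of cell makeup and of gene length in both axes was not tested.

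Rpl10, an X-linked protein that completes the large subunit late in its assembly, had the lowest loading on the first axis. It stood at 227, 251, 284, and 278 CPM in CON and at 249, 248, 207, 264, and 261 in MAL. In MAL-BG it ran from 115 to 288 CPM with a median of 184, which is wider than both other groups together. The log2 fold change of -0.44 ± 0.21 against CON (SE) did not pass the test (edgeR, adjusted p = 0.102). It passed without MAL-BG replicate 6 (-0.57, adjusted p = 0.0259), with library totals only (-0.57, 0.0449), and in the offset fit (-0.74, 0.0236). Rplp1 stood at 986, 837, 938, and 883 CPM in CON, at 704, 712, 644, 1185, and 824 in MAL mice, and at 651, 909, and 1406 (lowest, median, highest) in MAL-BG, and its log2 fold change of 0.14 against CON did not pass either (adjusted p = 0.599). Rps28, named here after its values were seen, stood at 23.9 CPM in CON replicate 2 and at 71.7 to 89.5 in the other 3 CON libraries.

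**Figure D4:**
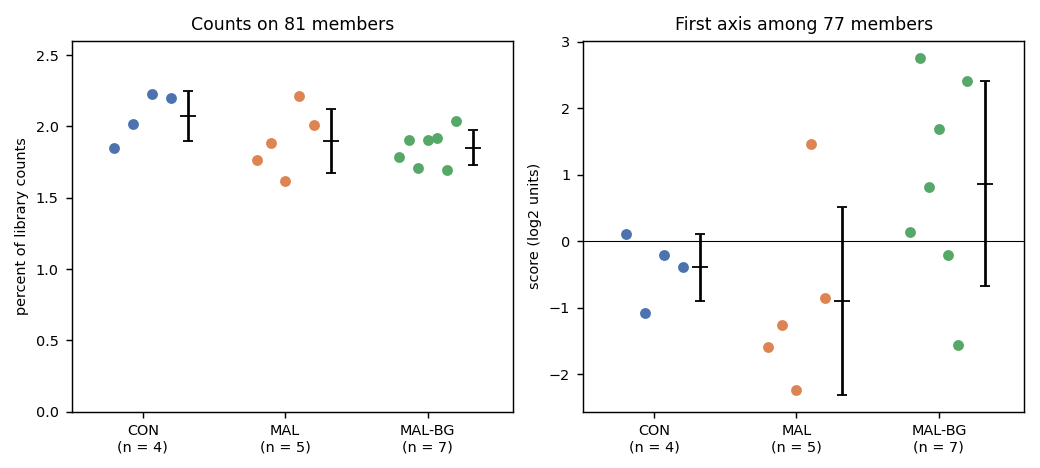
Share of library counts on the 81 members (left, percent, axis from 0) and score of each library on the first axis among 77 members (right, log2 units), with the mean and SD of each group in black. Shares overlap in all 3 groups, and scores of MAL-BG libraries run from -1.56 to 2.76.

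Each member was also read against the rest of the family. When libraries were scaled by the mean log2 CPM of the members, a choice made after the data were seen, 13 members were higher and 5 lower in MAL-BG versus CON, and 10 were higher and 5 lower versus MAL (edgeR, adjusted p under 0.05), beside 41.0% and 38.9% of all genes by the same rule in either direction. Those higher against CON were Rpl7, Rpl7l1, Rpl8, Rpl18, Rpl37a, Rps3a1, Rps4l, Rps4x, Rps9, Rps21, Rps27a, Rps29, and Rpsa, and among those lower were Rpl17, Rpl35, Rps19, and Rps25. Against CON, Rps29 was higher by 0.51 (edgeR, adjusted p = 9.19e-04) and Rps21 by 0.51 (adjusted p = 0.0304), and Rpl35 fell by 0.37 (adjusted p = 0.00573). Past a log2 fold change of 0.58, this scaling left 0 members in MAL-BG versus CON and 1 versus MAL, Rps27, which fell by 0.68 (adjusted p = 0.0453). With TMM scaling Rps27 stood at -0.65 against MAL and did not pass. It did pass against MAL with library totals only (-0.77), over 10 counts asked of all 16 libraries (-0.70), and thinned libraries (-0.79). The same held in the offset fit (-0.95), with offsets and mean log2 scaling (-0.75), with DESeq2 (-0.62), and without CON replicate 1 or MAL replicate 2.

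Properties of the genes were set beside the changes. Over 77 members, the Spearman correlation of the log2 fold change in MAL-BG versus CON was -0.02 with coding length, 0.11 with coding GC content, 0.17 with the share of unique stretches, and 0.20 with mean log2 CPM. With the number of pseudogenes that share a stretch it was -0.37. Genes with a snoRNA inside (30 members) had a median log2 fold change of -0.13, and the other 51 had -0.03. The 13 members with a pyrimidine run exactly at an annotated start had a median of -0.14, and the 47 without it had -0.10. All of these describe members measured in the same libraries.

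Outside the members chosen by name, the mRNAs most like them over the 16 libraries were Rpl36al (Pearson r = 0.863 with the mean log2 CPM of the members), Gnb2l1, the older name of the ribosomal scaffold Rack1 (0.839), Use1 (0.836), Higd2a (0.835), Naca (0.811), and Fau (0.800). Of these, Rpl36al, Gnb2l1, and Fau encode ribosomal components whose names did not match the rule for members. Fau, which encodes a ubiquitin-like fusion with a small-subunit protein, did not pass the test against CON (log2 fold change 0.11; edgeR, adjusted p = 0.587), nor did Gnb2l1 (0.08, adjusted p = 0.616) or Rpl36al (0.01, adjusted p = 0.954). Rpl36al fell by 0.36 in the offset fit (adjusted p = 0.0149).

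Genes that work with the ribosome were read beside its own proteins. Of 25 translation partners and other TOP mRNAs, 3 were higher and 4 lower against CON by the adjusted p alone, beside 19.8% and 25.2% of all genes (median log2 fold change 0.01). The offset fit gave 2 higher and 10 lower. Tpt1, an abundant TOP mRNA, stood at 771, 870.3, 984, and 904 CPM in CON and at 413, 552, and 706 (lowest, median, highest) in MAL-BG, and fell by 0.67 on the log2 scale (SE 0.14; edgeR, adjusted p = 0.00109). Hnrnpa1 rose by 1.10 (SE 0.27; adjusted p = 0.00384) and Pabpc4, a poly(A)-binding protein, by 0.52 (SE 0.15; adjusted p = 0.00816).

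Of 46 ribosome biogenesis genes, which make and process rRNA and assemble the subunits, 22 were higher (47.8%) and 3 lower (6.52%) against CON, and 19 were higher and 3 lower against MAL (edgeR, adjusted p under 0.05). Of all genes, 19.8% were higher and 25.2% lower against CON, and 20.2% and 24.1% against MAL. With library totals only, 14 were higher and 4 lower against CON. With TMM scaling, the 46 genes had a median of 0.26 against CON and 0.21 against MAL on the log2 scale. Past the fold limit, 8 were called higher and 1 lower against CON, beside 11.4% and 21.7% of all genes. Nifk, a nucleolar partner of Ki-67 needed for rRNA maturation, stood at 19.5, 18.3, 18.6, and 18.8 CPM in CON, at 20.9, 22.4, 17.3, 25.9, and 18.0 in MAL mice, and at 34.3 to 50.1 in MAL-BG, with a mean of 40.7 ± 5.24 (SD). MAL-BG did not overlap the others, and Nifk rose by 1.11 ± 0.13 against CON on the log2 scale (SE; edgeR, adjusted p = 1.78e-05). Brix1 and Nip7, both factors of large-subunit assembly, rose by 0.61 (adjusted p = 3.77e-04) and 0.73 (adjusted p = 3.80e-04).

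The ribosome of mitochondria has its own proteins, and of 77 such genes 18 were higher and 2 lower against CON and 25 higher and 0 lower against MAL (edgeR, adjusted p under 0.05). The higher genes made up 23.4% of the list against CON and 32.5% against MAL, beside 19.8% and 20.2% of all genes. Their median was 0.22 against CON and 0.25 against MAL on the log2 scale. In the offset fit the counts were 13 higher and 8 lower against CON and 12 higher and 7 lower against MAL, and with library totals only 10 higher and 5 lower and 12 higher and 2 lower. The medians in the offset fit were -0.02 and 0.02, while those of ribosome biogenesis genes were 0.23 and 0.15. Mrpl44 stood at 12.9 to 16.7 CPM in CON and at 26.3 to 32.6 in MAL-BG, and rose by 0.98 (SE 0.13; adjusted p = 5.09e-05). Mrps30 and Mrpl43 rose by 0.67 (adjusted p = 1.40e-04) and 0.56 (adjusted p = 7.78e-04), and Mrpl43 stood at 0.29 in the offset fit (adjusted p = 0.0131).

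**Figure D5:**
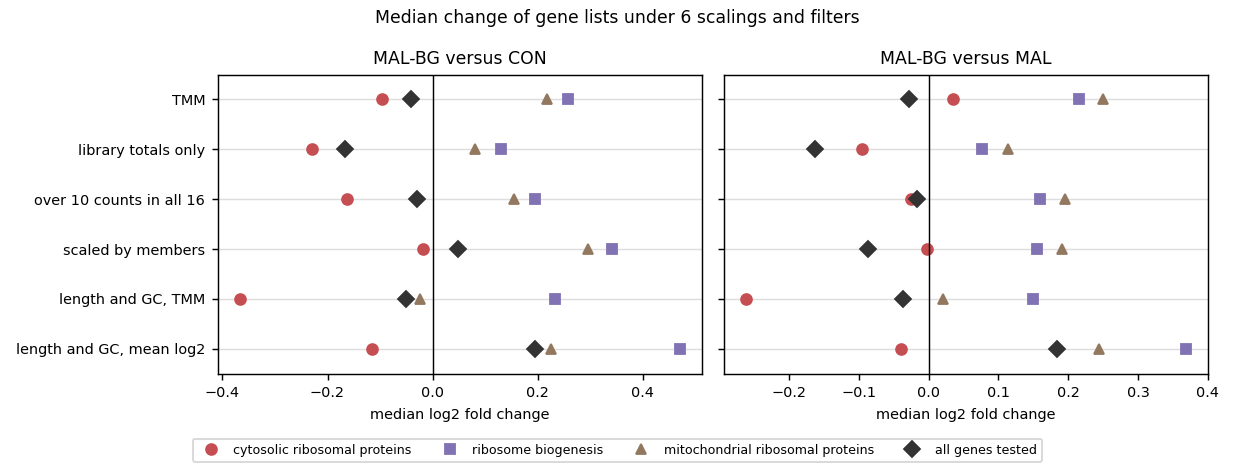
Median log2 fold change (horizontal axes) of the 81 cytosolic RPs, 46 ribosome biogenesis genes, 77 mitochondrial RPs, and all genes tested under 6 scalings and filters (rows), in MAL-BG versus CON on the left and MAL-BG versus MAL on the right. Cytosolic RPs lie left of the biogenesis genes in every row of both panels and move to -0.37 and -0.26 with length and GC offsets and TMM.

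Of 20 genes that control RP synthesis, 4 were higher and 5 lower against CON by the adjusted p alone, beside 19.8% and 25.2% of all genes, and the same numbers held against MAL. With offsets and mean log2 scaling, 9 were higher and 0 lower against CON, and 9 higher and 1 lower against MAL. That fit moved all genes upward as well. Of all 14565 genes, 32.1% were higher and 17.5% lower against CON, and 4662 genes were higher and 2367 lower against MAL. The median of the list was 0.26 against CON and 0.25 against MAL in that fit, beside 0.20 and 0.18 over all genes. Mtor, the kinase that acts on TOP mRNAs through its complexes, stood at 59.7, 55.6, 56.7, and 49.9 CPM in CON, at 55.1, 64.4, 63.6, 48.6, and 64.4 in MAL mice, and at 18.5, 24.7, and 47.7 (lowest, median, highest) in MAL-BG. Every MAL-BG library lay below the other 9, and Mtor fell by 0.97 against CON (SE 0.19; edgeR, adjusted p = 6.73e-04) and by 1.06 against MAL (adjusted p = 2.39e-04). Mtor stood at -0.54 and -0.64 in the offset fit (adjusted p = 0.0235 and 0.00724), and with offsets and mean log2 scaling it no longer passed (-0.29 and -0.41, adjusted p = 0.239 and 0.0848). Zfp598, a ubiquitin ligase that senses collided ribosomes, fell by 0.68 against CON (adjusted p = 9.30e-04) but was -0.29 and did not pass with offsets and mean log2 scaling (adjusted p = 0.200), and Max, the partner of Myc, rose by 0.50 (adjusted p = 0.00251) and by 0.32 in the offset fit (0.0238). Kinase activity was not measured.

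Of 7 RP pseudogene names, 4 passed the filter and 0 passed the test (edgeR, adjusted p under 0.05). The highest, Rpl14-ps1, stood at 11.4 ± 0.912 CPM in CON (SD, n = 4) and 9.11 ± 0.768 in MAL-BG (n = 7). Rps19-ps3 and Rps15a-ps4 had log2 fold changes of 0.86 and 0.74 against CON, with adjusted p values of 0.0707 and 0.199. Rps19-ps3 passed against CON with DESeq2 (0.89, adjusted p = 0.0462) and, in edgeR, without CON replicate 1 (0.0495) or MAL-BG replicate 1 (0.0400). Rpl14-ps1 fell against CON by 0.67 in the offset fit (edgeR, adjusted p = 0.00251), by 0.45 with library totals only (0.0174), and by 0.38 with over 10 counts asked of all 16 libraries (0.0392).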

How the data were processed

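RNA-Seq counts of 16 libraries of CD11b+ cells were analysed. The authors prepared stranded poly(A) libraries, sequenced paired reads of 42 bases, aligned them to GRCm38.p6 with STAR, and deposited unnormalized counts per gene from HTSeq. The counting mode, strand option, and annotation are not given in the sources used here. Groups came from the column names, whose running numbers match no sample title, so no batch term could be fitted.

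Genes past the count minimum (over 10 in at least 4 libraries) were scaled by TMM and compared in R 4.3.3 by the quasi-likelihood test of edgeR 4.0.16, in 1 fit of all groups, with Benjamini-Hochberg adjustment over all 14565 genes within a comparison. A call required an adjusted p under 0.05 and a log2 fold change past 0.58. CPM used TMM-scaled totals, and log2 CPM a prior count of 2. The code was tested on simulated counts. Length and GC values covered 99.3% of genes tested. Start sequences and gene coordinates came from RefSeq, and strands and coding sequences of genes from the GENCODE annotation of the same build.

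The members and gene lists were chosen with earlier results of these data known. Genes named one by one were copies and their parents, Rplp0, Rplp1, Rplp2, and Rpsa, 8 members with roles of their own, up to 5 members with the largest rise and 5 with the largest fall among those passing against CON, the 3 highest and 3 lowest per coding kilobase, the member of smallest p in MAL versus CON, 4 close relatives, and the 3 genes of smallest p in each companion list. Others were named to complete a count. A few genes under this rule are left out of the text and plots. Alternatives were other scalings, DESeq2 1.42.0, other filters, no fold limit, fits of only the groups compared, thinned libraries, offsets for length and GC, other denominators of the share, and each library left out in turn. Scaling by the members themselves was added after seeing the data.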

Additional observations from a re-analysis of the deposited data

Results flagged for a closer look

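Among 153 groups of values (50 named genes and the share of counts on members, in each of the 3 groups), 13 held a library whose gap to the others was large by Dixon's test, where chance flags about 1 in 20. In MAL, replicate 4 stood above the other 4 libraries for Rplp2 (608 CPM, others 310.3 to 367), Rps21 (528, others 282 to 348), Rpsa (315, others 204 to 235), Rpl22l1 (47.8, others 34.1 to 36.1), and Hnrnpa1 (46.7, others 24.7 to 28.1). The same library had the highest score of its group on the first axis. Rpl10 in MAL replicate 3 was low (207 CPM, others 248 to 264).

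In CON, replicate 1 was low for Rpl7l1 (62.7 CPM, others 76.2 to 78.2) and high for Rps27 (6.99, others 3.80 to 3.86). In MAL-BG, replicate 2 was low for Rps27l (32.3 CPM, others 40.1 to 45.5) and high for the pseudogenes Rps19-ps3 (7.05, others 1.89 to 3.80) and Rps15a-ps4 (4.60, others 0.708 to 2.06). Rps4x was low in MAL-BG replicate 3 (356 CPM, others 465 to 535), and Mtor was high in MAL-BG replicate 6 (47.7 CPM, others 18.5 to 30.8).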

How the results depend on the processing

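Members called lower against CON (1) became 3 with library totals only, 0 without a filter on low counts, with only the groups compared, with thinned libraries, or scaled by the members (chosen after seeing the data), and 20 with length and GC offsets and TMM kept, where the median was -0.37. Of all 14565 genes, 3619 were called lower against CON with library totals only and 3079 with these offsets. Without a fold limit they were 12, with 3 higher. Members called higher (1) and lower (0) against MAL became 0 and 1 with library totals only, with over 10 counts asked of all 16 libraries, with thinned libraries, with offsets and mean log2 scaling, or scaled by the members, and 0 and 5 with offsets and TMM kept, where the median was -0.26. With offsets and TMM kept, 1359 of all genes were called higher and 2859 lower against MAL. DESeq2 gave 1 lower, and 9 were higher without a fold limit. Leaving out each library in turn gave 0 to 1 lower against CON, and 0 to 3 higher and 0 to 1 lower against MAL. With the 50 most counted genes left aside, the share of counts was 2.51% (CON), 2.31% (MAL), and 2.32% (MAL-BG). The cause of these shifts was not tested. No paired analysis was possible because the running numbers of the columns do not link libraries of different groups. Depth limits Rpl39l, Rpl34, Rpl30, and Rps27, with 263 to 913 counts over 16 libraries.

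The sign of single log2 values turned as follows. With length and GC offsets and TMM kept the values were Rpl7 -0.15, Rpl39l -0.16, Rps4x -0.0688, Rplp1 -0.17, Rplp2 -0.0847, Rpl11 -0.33, Rps27a -0.0208, Rpl41 -0.23, Fau -0.0667, Gnb2l1 -0.18, Rpl36al -0.36, and Rps28 -0.10 (MAL-BG over CON), then Rpl7 -0.000634, Rpl22 -0.000363, Rplp1 -0.0390, Rplp2 -0.0456, Rpl5 -0.18, Rpl11 -0.22, Rpl13a -0.33, Rpl41 -0.0461, Rpl30 -0.0908, Fau -0.0384, Gnb2l1 -0.16, Rpl36al -0.20, and Rps28 -0.19 (MAL-BG over MAL). With library totals only the values were Rplp1 -0.00168, Rpl11 -0.12, Rpl41 -0.0332, Fau -0.0249, Gnb2l1 -0.0595, and Rpl36al -0.13 (MAL-BG over CON), then Rpl5 -0.13, Rpl13a -0.12, and Gnb2l1 -0.0330 (MAL-BG over MAL). With over 10 counts asked of all 16 libraries the values were Rpl11 -0.0441 and Rpl36al -0.0525 (MAL-BG over CON), then Rpl5 -0.0485 and Rpl13a -0.0347 (MAL-BG over MAL). With offsets and mean log2 scaling the values were Rpl22 0.0584, Rpl11 -0.0706, and Rpl36al -0.10 (MAL-BG over CON), then Rpl11 -0.00387 and Rpl13a -0.11 (MAL-BG over MAL). With upper-quartile factors the values were Rpl36al -0.00727 (MAL-BG over CON), then Rpl5 -0.0187 and Rpl13a -0.00719 (MAL-BG over MAL). With only the 2 groups compared the values were Rpl36al -0.00273 (MAL-BG over CON), then Rpl5 -3.07e-05 (MAL-BG over MAL). In thinned libraries the value was Rpl5 -0.00232 (MAL-BG over MAL). Scaled by the members the values were Rpl22 0.0496 (MAL-BG over CON), then Rpl5 -0.0439 and Rpl13a -0.0209 (MAL-BG over MAL). With RLE factors the value was Rpl22l1 0.0227 (MAL-BG over MAL). Without a filter the value was Rpl22l1 0.0111 (MAL-BG over MAL). With DESeq2 the value was Rpl22l1 0.0223 (MAL-BG over MAL). With each library left out in turn, ranges over CON were Rpl22 -0.0661 to 0.0279, Rps27l -0.23 to 0.0280, Rpl11 -0.0271 to 0.0813, Rpl36al -0.0706 to 0.0761, and Rps28 -0.00850 to 0.45. With each library left out in turn, ranges over MAL were Rpl22l1 -0.0464 to 0.0879, Rpl39 -0.18 to 0.00719, Rps27l -0.13 to 0.0367, Rpl5 -0.0403 to 0.0917, and Rpl13a -0.0641 to 0.12. Of these, Rpl7 against MAL passed the adjusted p with TMM alone, and Rpl11 and Rpl36al against CON and Rpl13a against MAL passed with offsets and TMM, while no other value named here passed before or after its sign turned. The cause was not tested.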
